A study of Mus musculus with 24 samples.

Results

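The collagen genes of the mouse were followed in liver RNA and at their start sites in liver chromatin. Members were all protein-coding rows of the deposited expression table whose symbol has the form Col, a type number, the letter a and a chain number. This gave 43 genes of 37583 in the table, 22369 of which are protein-coding. Of the 43, 32 reached 10 or more in 3 or more libraries and were tested, among 16471 genes in all. The same 32 passed when the DEN-treated wild-type libraries, where many collagens were highest, were left out of that filter.

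Collagens are extracellular proteins built from chains that wind into a triple helix, and each gene encodes 1 kind of chain. Fibrillar collagens form the banded fibres of scar and portal tissue, type IV collagens form the sheet-like network of basement membranes, and the other classes decorate fibres, link layers or span the cell membrane. In the liver, collagen is made mainly by stellate cells, portal fibroblasts and endothelium, while a healthy sinusoid has little organised basement membrane. Collagen deposition is a hallmark of fibrosis and of the stroma and vessels of liver tumours.

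The 12 RNA libraries came from livers of 8.5-month-old mice labelled C57BL6/CBA (the growth protocol names C57Bl6 mice), 1 numbered mouse per library and 3 per group. Wild-type (WT) and Smyd3 knockout (KO) mice were untreated, and mice of both genotypes were given diethylnitrosamine (DEN_WT and DEN_KO). Diethylnitrosamine (DEN) is a liver carcinogen, given once into the peritoneum at 25 mg/kg. Smyd3 encodes a lysine methyltransferase, and in all tissues of the knockout it carries a gene trap in its intron 5. Chromatin of DEN-treated livers was precipitated for Smyd3 (WT) and for H3K4me3, the histone mark of active starts (WT and KO), with 2 replicates each. Values are normalized read counts, described here as deposited values.

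Smyd3 itself read 79, 89 and 59 in WT and 57, 71 and 74 in DEN_WT. It read 29, 17 and 22 in KO and 12, 3 and 8 in DEN_KO, so that every knockout library lay below every wild-type library. These values include exons before the trap. Values summed to between 22320634 and 28973396 per library, and libraries of 1 group correlated with r between 0.956 and 0.978 across genes.

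With DEN, wild-type livers had higher RNA of many collagens, and most of these were lower in DEN-treated knockout livers. Against WT, 15 of 32 tested collagens were higher in DEN_WT and 2 were lower in limma at a Benjamini-Hochberg adjusted p below 0.05. Over all tested genes 16.1% were higher and 13.5% lower, 29.6% in all. The median log2 difference was 0.88 for the collagens and -0.02 for all tested genes. Against DEN_WT, 12 of 32 were lower in DEN_KO and 3 were higher, where 17.4% of all genes were lower and 16.4% higher, 33.9% in all. Of the 15 that were higher in DEN_WT, 3 did not pass in DEN_KO against DEN_WT: Col12a1 (-0.50 ± 0.35, limma adjusted p = 0.28), Col15a1 (0.52 ± 0.36, adjusted p = 0.28) and Col5a2 (-0.59 ± 0.43, adjusted p = 0.31). The medians there were -0.48 for collagens and -0.06 for all genes. These comparisons share the 3 DEN_WT libraries, so their opposite signs are not independent. How many of all genes higher in DEN_WT were lower in DEN_KO was not counted. The 12 of 15 collagens therefore have no matching share over all genes. In bulk tissue, fewer cells of a type and less RNA per cell cannot be told apart.

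**Figure D1:**
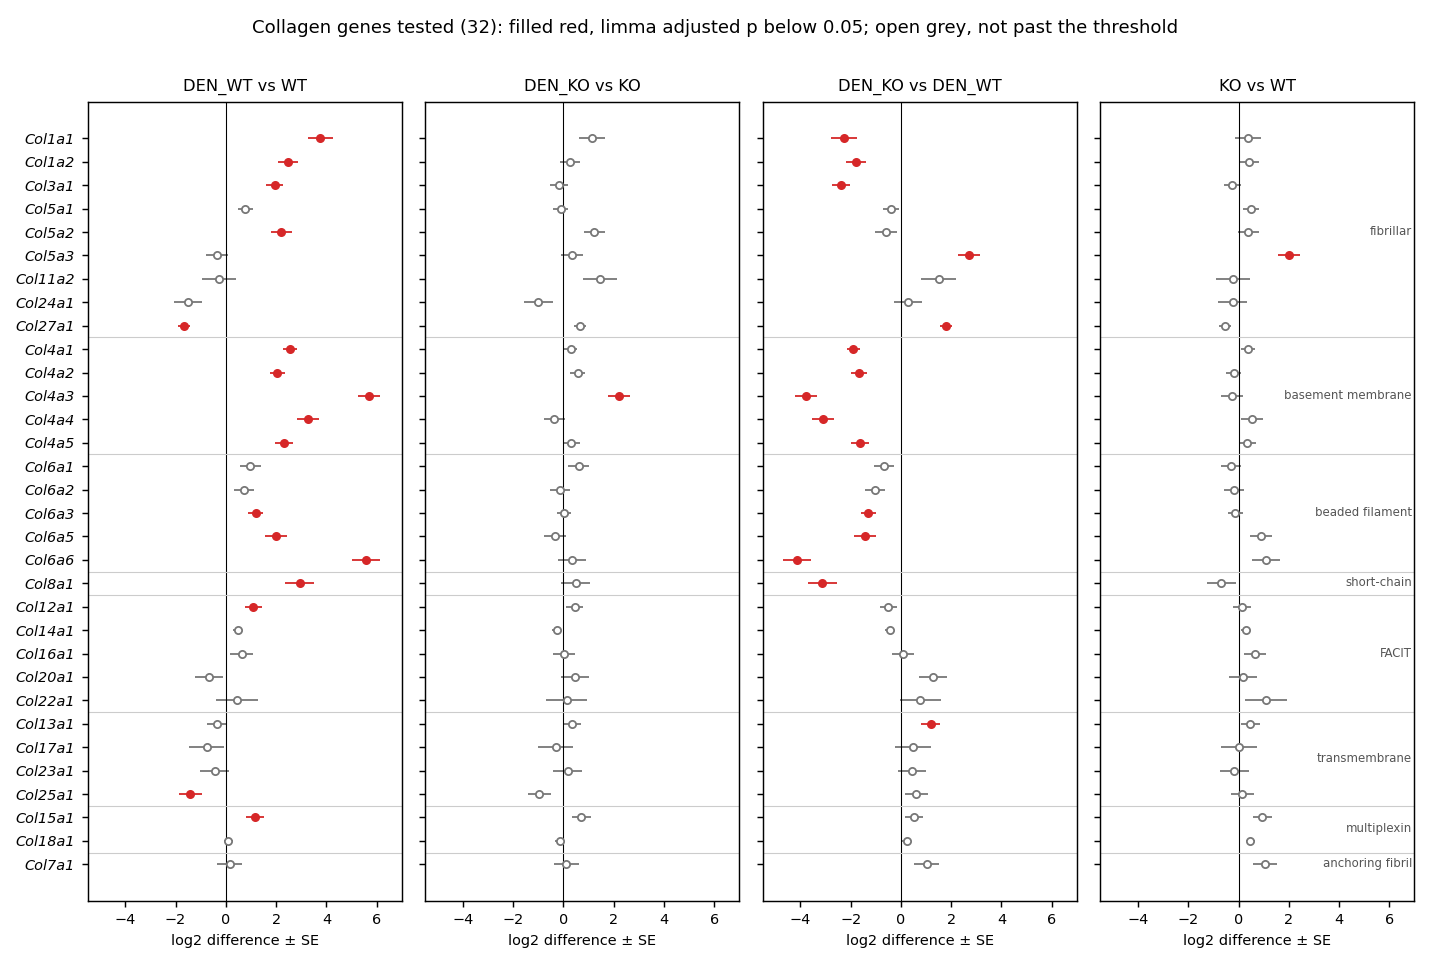
Log2 differences (x axis, log2 of value + 1) with their standard errors for the 32 tested collagens (rows, grouped by class) in 4 comparisons. Filled red points passed an adjusted p of 0.05 in limma; the 5 tested basement membrane chains lie to the right in DEN_WT against WT and to the left in DEN_KO against DEN_WT, while KO against WT has 1 filled point, Col5a3.

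Among fibrillar collagens, 4 of 9 tested genes were higher in DEN_WT than in WT, 1 was lower and 4 were not past the threshold. Of all tested genes 16.1% were higher and 13.5% lower. Col1a1 and Col1a2 encode the chains of type I collagen, the main protein of scar fibres. Col1a1 (chr11:94797538-94814356, mm9) read 31, 28 and 17 in WT, 908, 230 and 199 in DEN_WT, 44, 26 and 29 in KO and 44, 113 and 72 in DEN_KO. The first DEN_WT mouse stood well above the others, and even the lowest DEN_WT library was above all 9 others. Its log2 difference was 3.77 ± 0.51 (SE, adjusted p = 0.00017 in limma) in DEN_WT against WT and -2.27 ± 0.51 (adjusted p = 0.0048) in DEN_KO against DEN_WT.

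Col1a2 (chr6:4454814-4491543) read 101, 78 and 82 in WT, 1099, 324 and 323 in DEN_WT, 136, 132 and 87 in KO and 127, 185 and 118 in DEN_KO. The first DEN_WT mouse was again well above the others, and KO overlapped both WT and DEN_KO. The difference was 2.48 ± 0.40 with DEN in wild type (limma adjusted p = 0.0005) and -1.78 ± 0.40 in DEN_KO against DEN_WT (adjusted p = 0.0042). The ratio of the Col1a1 to the Col1a2 value was 0.616 to 0.826 in DEN_WT, 0.207 to 0.359 in WT, 0.197 to 0.333 in KO and 0.346 to 0.611 in DEN_KO. It is a ratio of counts and not of molecules, since gene lengths were not used. DEN_WT lay above every other library in that ratio, but only narrowly, with DEN_WT 3 at 0.616 and DEN_KO 2 and DEN_KO 3 at 0.611 and 0.610. An exact permutation test of 3 against 3 cannot go below p = 0.1.

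Col3a1, whose type III fibres accompany type I in young scar and vessel walls, lies on chr1:45368383-45406551 in mm9. It read 487, 346 and 357 in WT, 2813, 1168 and 1052 in DEN_WT, 452, 335 and 236 in KO and 268, 393 and 231 in DEN_KO. Only DEN_WT stood apart, and DEN_KO overlapped both untreated groups. The difference was 1.95 ± 0.35 in DEN_WT against WT (limma adjusted p = 0.0011) and -2.38 ± 0.35 in DEN_KO against DEN_WT (adjusted p = 0.00034). Col5a2, a chain of type V collagen that sits inside type I fibres and limits their width, followed this only in part. It read 76, 39 and 25 in WT, 292, 177 and 149 in DEN_WT, 71, 77 and 31 in KO and 108, 124 and 168 in DEN_KO. It was higher in DEN_WT by 2.20 ± 0.43 (adjusted p = 0.0019), and the DEN_KO libraries overlapped DEN_WT.

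The first DEN_WT mouse bears on these fibrillar genes. Across the settings run, which include leaving out each library, the DEN_WT against WT difference was between 3.07 and 4.16 for Col1a1, 1.89 and 2.77 for Col1a2, and 1.5 and 2.21 for Col3a1, and it passed the threshold in each.

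The upstream sequences of Col1a2 and Col3a1 are shown because these genes moved alike and differ in base composition. They are the 250 bases before the RefSeq start in GRCm38.p6, written along the gene's strand, 5′ to 3′, and the peak lists are in mm9, so no peak is placed on the letters. Capitals mark every match, on either strand and overlaps included, to 3 motifs: CCCTCC, which has been reported for binding of human SMYD3, the CCAAT box, and GGGCGG, the core of the GC box. Col1a2 is chr6:4505368-4505617 on the plus strand, and Col3a1 is chr1:45311288-45311537 on the plus strand.
Col1a2: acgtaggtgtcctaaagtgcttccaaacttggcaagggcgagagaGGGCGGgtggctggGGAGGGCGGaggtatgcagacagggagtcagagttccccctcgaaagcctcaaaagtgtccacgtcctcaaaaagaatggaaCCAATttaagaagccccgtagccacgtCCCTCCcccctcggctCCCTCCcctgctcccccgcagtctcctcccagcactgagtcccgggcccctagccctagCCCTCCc
Col3a1: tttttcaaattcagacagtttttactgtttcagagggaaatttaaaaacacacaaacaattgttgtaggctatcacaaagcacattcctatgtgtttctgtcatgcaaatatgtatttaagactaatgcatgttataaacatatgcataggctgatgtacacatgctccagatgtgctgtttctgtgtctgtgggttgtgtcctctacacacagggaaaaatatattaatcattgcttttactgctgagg
Col1a2 held CCCTCC 4 times, GGGCGG 2 times and CCAAT 1 time at 62% G and C. Col3a1 held 0 of each at 35.2%. Of 32851 RefSeq promoter entries, 35.2% held CCCTCC in this window, 33.8% CCAAT and 32.7% GGGCGG. Of the 35 collagens with an entry, 21 (60%) held CCCTCC, 13 (37.1%) CCAAT and 21 (60%) GGGCGG. A collagen counted if any of its entries held the motif, with 38 entries in all. Its share per gene is thus not in the same unit as the shares per entry. A match describes letters and is not a binding site.

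Col27a1 was the fibrillar gene called lower in DEN_WT than in WT. Col27a1, a fibrillar chain best known from cartilage (chr4:62875038-62996025), read 1217, 1737 and 1857 in WT, 389, 532 and 591 in DEN_WT, 1355, 1103 and 868 in KO and 1562, 1449 and 2238 in DEN_KO. DEN_WT lay below all 9 other libraries. The difference was -1.67 ± 0.24 in DEN_WT against WT (limma adjusted p = 0.00021) and 1.79 ± 0.24 in DEN_KO against DEN_WT (adjusted p = 0.00019). Its start has a Smyd3 peak of 1031 bases in the deposited list.

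Col5a3, another chain of type V collagen (chr9:20574494-20619511), followed the genotype. It read 213, 660 and 731 in WT, 439, 323 and 338 in DEN_WT, 2738, 2360 and 1062 in KO and 3089, 1714 and 2582 in DEN_KO. Every knockout library was above every wild-type library, with or without DEN. The difference was 2.72 ± 0.43 in DEN_KO against DEN_WT (limma adjusted p = 0.00057) and 2.02 ± 0.43 in KO against WT (adjusted p = 0.042). It was the only collagen past the threshold in KO against WT, where 1.16% of all genes were called, and 4 of 32 collagens had an unadjusted p below 0.05 against 15.1% of all genes. The call without DEN was lost without WT 1 (1.45, adjusted p = 0.079), WT 2 (2.26, adjusted p = 0.088), KO 1 (1.75, adjusted p = 0.17) or KO 2 (1.86, adjusted p = 0.17). DEN itself gave -0.37 ± 0.43 in wild type (adjusted p = 0.56) and 0.33 ± 0.43 in knockout (adjusted p = 0.64).

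Of the 4 fibrillar genes past no threshold in DEN_WT against WT, Col5a1, also of type V, read between 103 and 127 in WT and between 125 and 322 in DEN_WT. Col24a1 read 19, 11 and 12 in WT and 8, 2 and 4 in DEN_WT, without overlap but at low values (-1.51 ± 0.57, limma adjusted p = 0.061). Col11a2 had its highest value, 277, in 1 DEN_KO library.

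The type IV collagens of basement membranes shared their direction in DEN_WT against WT and in DEN_KO against DEN_WT. They did not rank the DEN_WT mice alike. Col4a1 was highest in DEN_WT 1, Col4a3 in DEN_WT 2 and Col4a5 in DEN_WT 3. All 5 tested chains were higher in DEN_WT than in WT (16.1% of all tested genes were), with a median log2 difference of 2.56. All 5 were lower in DEN_KO than in DEN_WT (17.4% of all tested genes were), with a median of -1.89. Their genes lie in head-to-head pairs, and chains of a pair are wound into shared trimers. Col4a1 and Col4a2, the pair found in nearly all basement membranes, start 21 bases apart on opposite strands of chromosome 8. Col4a3 and Col4a4, chains of specialised membranes such as those of kidney glomerulus and lung, start 72 bases apart on chromosome 1. Col4a5 and Col4a6 start 1309 bases apart on X.

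Col4a1 (chr8:11198423-11312826) read 606, 328 and 524 in WT, 3661, 2903 and 2017 in DEN_WT, 746, 665 and 468 in KO and 735, 932 and 609 in DEN_KO. Its partner Col4a2 (chr8:11312805-11449287) read 615, 346 and 338 in WT, 2170, 1762 and 1330 in DEN_WT, 570, 350 and 239 in KO and 509, 623 and 493 in DEN_KO. In both genes each DEN_WT library was above all 9 others, and KO overlapped both WT and DEN_KO. Col4a1 differed by 2.56 ± 0.27 with DEN in wild type (limma adjusted p = 2.6e-05) and by -1.89 ± 0.27 in DEN_KO against DEN_WT (adjusted p = 0.00032). For Col4a2 these were 2.05 ± 0.31 (adjusted p = 0.00032) and -1.67 ± 0.31 (adjusted p = 0.0013).

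Col4a3 (chr1:82583496-82718634) had the largest DEN difference of the tested collagens in wild type. It read 20, 19 and 11 in WT, 710, 1252 and 783 in DEN_WT, 13, 11 and 16 in KO and 144, 48 and 38 in DEN_KO. DEN_WT was far above all others, and DEN_KO lay between DEN_WT and the untreated groups without overlap. The difference was 5.69 ± 0.44, or 51.8-fold, in DEN_WT against WT (limma adjusted p = 2.4e-06) and -3.77 ± 0.44 in DEN_KO against DEN_WT (adjusted p = 9.6e-05). It was also the only collagen called in DEN_KO against KO, at 2.20 ± 0.44 (adjusted p = 0.0066), where 14.9% of all genes were called and 4 of 32 collagens had an unadjusted p below 0.05 against 30.4% of all genes. Its partner Col4a4 (chr1:82447298-82583424) read 23, 18 and 15 in WT, 181, 277 and 131 in DEN_WT, 44, 25 and 18 in KO and 36, 21 and 12 in DEN_KO. Unlike Col4a3, the DEN_KO values of Col4a4 overlapped both untreated groups. It was higher in DEN_WT by 3.28 ± 0.44 (adjusted p = 0.00014) and lower in DEN_KO than in DEN_WT by a log2 difference of -3.10 ± 0.44 (adjusted p = 0.00027).

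The pairs therefore differed in balance. The Col4a3 to Col4a4 ratio was 0.733 to 1.06 in WT, 0.295 to 0.889 in KO, 3.92 to 5.98 in DEN_WT and 2.29 to 4.0 in DEN_KO, so that both DEN groups lay above both untreated groups. The Col4a1 to Col4a2 ratio was 0.948 to 1.55 in WT, 1.31 to 1.96 in KO, 1.52 to 1.69 in DEN_WT and 1.24 to 1.5 in DEN_KO, with all groups between 0.948 and 1.96. These ratios are given as descriptions.

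Col4a5, which forms trimers with Col4a3 and Col4a4 (chrX:137909928-138123778), read 69, 39 and 59 in WT, 180, 285 and 392 in DEN_WT, 57, 94 and 63 in KO and 119, 61 and 91 in DEN_KO. DEN_WT lay above all 9 others. It differed by 2.31 ± 0.34 in DEN_WT against WT (limma adjusted p = 0.00032) and by -1.63 ± 0.34 in DEN_KO against DEN_WT (adjusted p = 0.0032). Col4a6 was too low to test, with a highest value of 12.

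**Figure D2:**
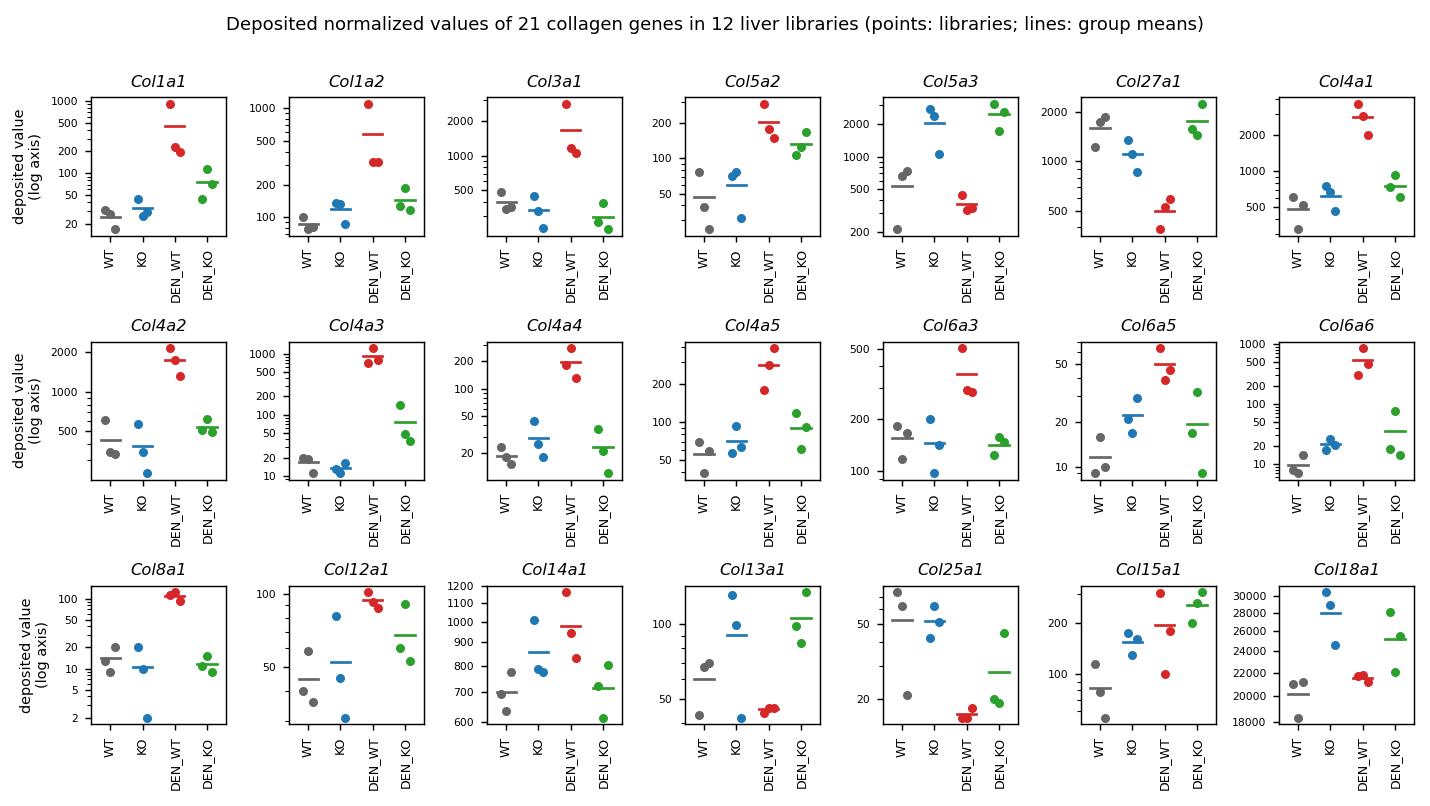
Deposited values (y axis, log scale, with its own range in each panel) of 21 collagens in the 12 libraries by group (x axis); points are libraries and lines are group means. In Col4a3 the 3 DEN_WT points lie between 710 and 1252, above the DEN_KO points at 38 to 144 and the untreated points at 11 to 20, while in Col5a3 the KO and DEN_KO points lie above the other groups.

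The beaded-filament collagens of type VI anchor cells to the matrix. In DEN_WT against WT 16.1% of all tested genes were higher, and in DEN_KO against DEN_WT 17.4% were lower. Of 5 tested type VI genes, 3 were both higher in DEN_WT than in WT and lower in DEN_KO than in DEN_WT. Col6a6 (chr9:105591747-105730415) had the largest change among them. It read 8, 7 and 14 in WT, 299, 858 and 462 in DEN_WT, 17, 26 and 21 in KO and 18, 75 and 14 in DEN_KO. DEN_WT stood above all others, and 1 DEN_KO mouse was higher than the other 2. The difference was 5.58 ± 0.55 in DEN_WT against WT (limma adjusted p = 1.4e-05) and -4.14 ± 0.55 in DEN_KO against DEN_WT (adjusted p = 0.0002).

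Col6a5, a neighbour of Col6a6 on chromosome 9 and like it a possible replacement for the Col6a3 chain, read 9, 16 and 10 in WT, 64, 39 and 45 in DEN_WT, 21, 17 and 29 in KO and 17, 32 and 9 in DEN_KO. It was higher with DEN in wild type by 2.00 ± 0.44 (limma adjusted p = 0.0043), with no overlap. In DEN_KO against DEN_WT it was at -1.44 ± 0.44 (adjusted p = 0.023), a call lost without DEN_WT 1 (-1.24, adjusted p = 0.079), DEN_WT 3 (-1.49, adjusted p = 0.051), DEN_KO 1 (-1.44, adjusted p = 0.056) or DEN_KO 3 (-1.02, adjusted p = 0.11).

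Col6a3, the largest of the main chains, read 181, 118 and 166 in WT, 509, 293 and 283 in DEN_WT, 198, 97 and 141 in KO and 124, 156 and 146 in DEN_KO. DEN_WT lay above all others, with differences of 1.19 ± 0.29 (limma adjusted p = 0.0079) and -1.29 ± 0.29 (adjusted p = 0.0047). The obligate chains Col6a1 and Col6a2 were not past the threshold in either comparison. Col6a1 read 92, 112 and 123 in WT and 504, 120 and 161 in DEN_WT, and Col6a2 read 116, 77 and 107 in WT and 361, 85 and 142 in DEN_WT. In both, the first DEN_WT mouse was high and the groups overlapped. Their differences from WT were 0.98 ± 0.41 (adjusted p = 0.09) and 0.73 ± 0.41 (adjusted p = 0.2).

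The short-chain collagen Col8a1, part of the lattice under endothelium and in remodelled vessel walls, read 13, 9 and 20 in WT, 114, 124 and 91 in DEN_WT, 20, 10 and 2 in KO and 11, 15 and 9 in DEN_KO. Only DEN_WT was raised, and the other groups overlapped. The difference was 2.94 ± 0.58 in DEN_WT against WT (limma adjusted p = 0.002) and -3.14 ± 0.58 in DEN_KO against DEN_WT (adjusted p = 0.0013). Its 250 bases upstream, chr16:57754738-57754987 on the minus strand of GRCm38.p6, are shown as the upstream sequence of a gene raised only in DEN_WT, with capitals for the same 3 motifs.
Col8a1: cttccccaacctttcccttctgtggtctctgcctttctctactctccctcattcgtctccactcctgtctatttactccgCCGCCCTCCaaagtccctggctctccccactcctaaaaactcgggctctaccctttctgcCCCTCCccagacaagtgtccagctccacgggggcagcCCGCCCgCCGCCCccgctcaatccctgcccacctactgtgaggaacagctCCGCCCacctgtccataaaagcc
It held CCCTCC 2 times, GGGCGG 4 times and CCAAT 0 times, and none of the 3 deposited lists holds a region within 5000 bases of the start.

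Of the FACIT collagens, which lie on fibre surfaces, 1 of 5 tested passed in DEN_WT against WT, where 29.6% of all tested genes did. Col12a1 read 40, 58 and 36 in WT, 102, 93 and 88 in DEN_WT, 81, 45 and 31 in KO and 60, 91 and 53 in DEN_KO. It was higher in DEN_WT by 1.09 ± 0.35 (limma adjusted p = 0.03). That call was lost without WT 1 (1.03, adjusted p = 0.075), WT 3 (0.95, adjusted p = 0.094), DEN_WT 1 (1.03, adjusted p = 0.078), DEN_WT 2 (1.10, adjusted p = 0.065) or DEN_WT 3 (1.14, adjusted p = 0.061). Col14a1, also a FACIT, read 691, 634 and 774 in WT, 1164, 943 and 830 in DEN_WT, 1008, 787 and 773 in KO and 720, 614 and 803 in DEN_KO. DEN_WT was above WT without overlap, but the difference of 0.47 had an adjusted p of 0.056.

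Of the membrane-spanning collagens, Col25a1, known from neurons, read 74, 62 and 21 in WT, 16, 16 and 18 in DEN_WT, 42, 62 and 51 in KO and 20, 19 and 45 in DEN_KO. It was lower with DEN in wild type by a log2 difference of -1.41 ± 0.46 (limma adjusted p = 0.032). The call was lost without WT 1 (-1.08, adjusted p = 0.12), WT 2 (-1.20, adjusted p = 0.12), DEN_WT 1 (-1.39, adjusted p = 0.071), DEN_WT 2 (-1.39, adjusted p = 0.073) or DEN_WT 3 (-1.47, adjusted p = 0.064), and with the replicate number as a block (adjusted p = 0.052). Col13a1, found at cell-matrix junctions, read 43, 67 and 70 in WT, 44, 46 and 46 in DEN_WT, 131, 99 and 42 in KO and 98, 84 and 135 in DEN_KO. It was higher in DEN_KO than in DEN_WT by 1.18 ± 0.37 (adjusted p = 0.026), with no overlap. That call was lost without DEN_WT 1 (1.15, adjusted p = 0.057), DEN_WT 2 (1.19, adjusted p = 0.06), DEN_WT 3 (1.19, adjusted p = 0.059), DEN_KO 1 (1.21, adjusted p = 0.054) or DEN_KO 3 (0.99, adjusted p = 0.11).

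The multiplexins Col15a1 and Col18a1 are basement membrane proteins with a core that carries sugar chains. Col18a1, the source of endostatin, is made by hepatocytes. It had by far the highest values of the family and read 21046, 18349 and 21184 in WT, 21688, 21796 and 21188 in DEN_WT, 30505, 28899 and 24651 in KO and 28144, 22078 and 25535 in DEN_KO. Every knockout library was above every wild-type library, but the differences of 0.47 ± 0.19 in KO against WT (limma adjusted p = 0.26) and of DEN_KO against DEN_WT did not pass. Col15a1 read 115, 78 and 55 in WT, 302, 100 and 181 in DEN_WT, 174, 130 and 161 in KO and 201, 265 and 307 in DEN_KO. It was higher in DEN_WT than in WT by 1.15 ± 0.36 (adjusted p = 0.029), with overlap. The call was lost without WT 2 (1.14, adjusted p = 0.072), WT 3 (0.89, adjusted p = 0.11), DEN_WT 1 (0.76, adjusted p = 0.12) or DEN_WT 3 (1.13, adjusted p = 0.072).

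Because of Col18a1, the sum over all 43 collagens hides the change in the others. The sum was 23595 to 27055 in WT, 29617 to 39289 in KO, 31189 to 38552 in DEN_WT and 29805 to 36935 in DEN_KO, with KO and DEN_WT overlapping. Without Col18a1 it was 5246 to 5871 in WT, 4966 to 8784 in KO, 10001 to 16864 in DEN_WT and 7727 to 9256 in DEN_KO, and only DEN_WT stood above the rest.

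The 11 collagens not tested are Col2a1, Col4a6, Col6a4, Col8a2, Col9a1, Col9a2, Col9a3, Col10a1, Col11a1, Col19a1 and Col28a1. None read above 16 in any library. Several are known from cartilage.

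Whether the DEN effect differed between genotypes was tested as an interaction, the DEN effect in knockout minus that in wild type. At a limma adjusted p below 0.05 it was below 0 for 10 of 32 collagens and above 0 for 1, Col27a1. Past the same threshold 7.83% of all tested genes were below and 8.73% above, 16.6% in all. The 10 were Col1a1, Col1a2, Col3a1, Col4a1, Col4a2, Col4a3, Col4a4, Col4a5, Col6a5 and Col6a6. The median was -0.69 for collagens and -0.03 for all genes. For Col4a1 the DEN difference was 2.56 in wild type and 0.28 in knockout, an interaction of -2.28 ± 0.39 (limma adjusted p = 0.0031). For Col6a6 it was 5.58 and 0.34, an interaction of -5.24 ± 0.78 (adjusted p = 0.0016). For Col4a4 it was 3.28 and -0.36, an interaction of -3.64 ± 0.62 (adjusted p = 0.003). Col27a1 went the other way, from -1.67 in wild type to 0.65 in knockout, an interaction of 2.32 ± 0.33 (adjusted p = 0.0014).

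Some interactions were less secure. Col8a1, at -2.45, missed the threshold with an adjusted p of 0.056 in limma. The Col1a1 call was lost without WT 3 (-2.39, adjusted p = 0.056), KO 1 (-2.42, adjusted p = 0.065), DEN_KO 1 (-2.31, adjusted p = 0.063) or DEN_KO 3 (-2.65, adjusted p = 0.054). The Col6a5 call was lost without DEN_KO 3 (-1.90, adjusted p = 0.056). The Col4a2 call was lost in 8 of 12 such omissions, with values from -1.15 (without KO 1, adjusted p = 0.077) and adjusted p up to 0.079 (without WT 2). The others were the omissions of WT 3 (adjusted p = 0.072), KO 2 (adjusted p = 0.057), DEN_WT 1 (adjusted p = 0.068), DEN_WT 2 (adjusted p = 0.066), DEN_KO 1 (adjusted p = 0.067) and DEN_KO 3 (adjusted p = 0.076).

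Markers of the cells that make collagen moved with these results in part. Over all tested genes, 16.1% were higher in DEN_WT than in WT and 13.5% lower. The lists are short, so their counts are given as descriptions beside these shares. Of 12 stellate cell and myofibroblast markers tested, 3 were higher in DEN_WT than in WT (Acta2, the actin of activated stellate cells, Pdgfrb and Tagln), 2 were lower (Hand2 and Hgf) and 7 were not past the threshold. The list summed to 3432 to 4495 in WT, 3504 to 4687 in KO, 4592 to 5917 in DEN_WT and 3227 to 4243 in DEN_KO. Acta2 read 26, 112 and 79 in WT, 465, 692 and 326 in DEN_WT, 64, 49 and 35 in KO and 110, 121 and 45 in DEN_KO, while Lrat, of quiescent stellate cells, read 176, 300 and 269 in WT and 368, 137 and 193 in DEN_WT. Of 7 markers of portal fibroblasts and mesothelium, 3 were higher (Entpd2, Fbln2 and Eln), and the sums were 271 to 335 in WT, 315 to 407 in KO, 834 to 1056 in DEN_WT and 395 to 495 in DEN_KO. Entpd2, an ectonucleotidase of portal fibroblasts, carried much of this rise, and without it the sums were 170 to 273, 215 to 302, 260 to 478 and 232 to 338 in the same order.

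Of 10 endothelial markers 7 were higher in DEN_WT than in WT, where 16.1% of all tested genes were higher and 13.5% lower. Among the 7 were Pecam1 (0.93 ± 0.16, limma adjusted p = 0.00079) and Cd34 (3.52 ± 0.37, adjusted p = 2.1e-05). The endothelial markers summed to 4891 to 6019 in WT, 5632 to 6445 in KO, 7809 to 8064 in DEN_WT and 6703 to 7466 in DEN_KO. Of 6 bile duct markers that passed the filter without the DEN_WT libraries 2 were higher (Spp1 and Prom1), and the other, Cldn4, read 2, 4 and 4 in WT and 36, 11 and 37 in DEN_WT. The sums of the duct markers were 918 to 1129 in WT, 807 to 879 in KO, 10009 to 17050 in DEN_WT and 1116 to 1876 in DEN_KO. Spp1 carried much of the rise in DEN_WT. Without it the sums were 251 to 361 in WT, 272 to 508 in KO, 678 to 1277 in DEN_WT and 213 to 406 in DEN_KO. Prom1 made up much of the rise that was left, at 12, 18 and 17 in WT and 250, 1019 and 374 in DEN_WT. Krt7, Krt19, Epcam and Sox9 did not pass in DEN_WT against WT. The defining duct keratin Krt19 read 19, 55 and 50 in WT and 48, 19 and 53 in DEN_WT. Of 7 macrophage markers 0 passed in DEN_WT against WT, with sums of 4307 to 4408 in WT, 4883 to 5454 in KO, 2225 to 8346 in DEN_WT and 7062 to 10656 in DEN_KO. Of 3 cartilage markers tested 1, Lect1, was lower. The sums, of which Lect1 was the largest part in every library, were 171 to 370 in WT, 200 to 311 in KO, 47 to 96 in DEN_WT and 88 to 255 in DEN_KO. Of 7 hepatocyte markers 1 was higher and 1 lower. Their sums, of which Alb was the largest part in every library, were 2194313 to 2430623 in WT, 1886527 to 3234631 in KO, 3106695 to 4790404 in DEN_WT and 1786163 to 2625092 in DEN_KO. In DEN_KO against DEN_WT, 9 of the 52 markers that passed without the DEN_WT libraries were lower and 6 higher (28.8%, against 33.9% of all genes). The lower ones were 3 stellate, 1 portal, 3 endothelial and 2 duct markers, and the higher ones 2 stellate, 2 hepatocyte, 1 macrophage and 1 cartilage marker. No listed marker was at 0 in all libraries. The part of these cells in the collagen differences was not tested.

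Genes that process collagen or control it were followed in 8 lists, 85 genes tested. Of these, 4 (Itga2, Itga11, Lox and Timp1) passed the filter only through the DEN_WT libraries. That selection favours a difference, so they are left out of the counts. Of the other 81, 36 were higher and 2 lower in DEN_WT against WT (46.9% called, against 29.6% of all genes), and 29 were lower and 2 higher in DEN_KO against DEN_WT (38.3%, against 33.9%). Of all tested genes 16.1% were higher in DEN_WT than in WT. The lists were chosen with earlier results of these data known, so their shares, here and below, are descriptions. The enzymes that hydroxylate prolines and lysines inside the cell had the smallest share of calls, with 2 of 15 higher in DEN_WT. These were Crtap, a partner of prolyl 3-hydroxylase, and Lepre1, that hydroxylase. Crtap read 163, 260 and 296 in WT, 647, 631 and 633 in DEN_WT, 249, 219 and 149 in KO and 233, 146 and 144 in DEN_KO. DEN_WT was above all others for Crtap, with differences of 1.45 ± 0.26 (limma adjusted p = 0.0012) and -1.90 ± 0.26 (adjusted p = 0.00025). Plod1, a lysyl hydroxylase, was instead higher in DEN_KO than in DEN_WT (0.57 ± 0.17, adjusted p = 0.021). In folding and export 2 of 7 were higher in DEN_WT, Fkbp10, a prolyl isomerase of the endoplasmic reticulum, and Creb3l1, a membrane-bound activator of collagen transcription. Serpinh1, the collagen chaperone, read 443, 377 and 455 in WT and 779, 571 and 547 in DEN_WT and did not pass (0.56 ± 0.31, adjusted p = 0.2).

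Outside the cell, 3 of 6 counted genes that trim propeptides, 2 of 5 that cross-link fibres and 5 of 10 that degrade collagen or inhibit this were higher in DEN_WT than in WT. Of all tested genes 16.1% were. Adamts14, a procollagen N-proteinase, read 28, 23 and 33 in WT, 137, 427 and 228 in DEN_WT, 57, 31 and 27 in KO and 47, 57 and 45 in DEN_KO. Lox, the founding lysyl oxidase and not counted here, read 2, 1 and 4 in WT, 48, 44 and 18 in DEN_WT, 2, 6 and 0 in KO and 2, 4 and 6 in DEN_KO. Mmp12, a metalloproteinase of macrophages, read 11, 4 and 21 in WT, 374, 366 and 437 in DEN_WT, 7, 2 and 11 in KO and 12, 36 and 5 in DEN_KO. Adamts14 and Mmp12 were high in DEN_WT alone. So was Lox, but it passed the filter only through those libraries, so its pattern is no separate result. Mmp14, the membrane collagenase, and Timp3, an inhibitor bound to matrix, were higher in DEN_WT by 2.37 ± 0.29 (limma adjusted p = 6.7e-05) and 1.11 ± 0.14 (adjusted p = 0.00012). This protease and this inhibitor thus moved in the same direction. The protease Mmp19 (-0.43 ± 0.20, adjusted p = 0.13) and the inhibitor Timp2 (0.39 ± 0.32, adjusted p = 0.39) were among the counted genes that did not pass.

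Of 6 collagen receptors counted, 2 were higher in DEN_WT than in WT (16.1% of all tested genes were). Of the same 6, 2 were lower in DEN_KO than in DEN_WT (17.4% of all tested genes were). Ddr1, a receptor kinase that is turned on by collagen, read 27, 21 and 27 in WT, 395, 281 and 304 in DEN_WT, 28, 45 and 29 in KO and 37, 84 and 77 in DEN_KO (3.65 ± 0.33, limma adjusted p = 7.1e-06). The integrin chain Itga2, not counted, read 36, 54 and 46 in DEN_WT, 6, 11 and 2 in DEN_KO, 3, 0 and 6 in KO and 0 in every WT library. Among 19 matrix partners 11 were higher and 1, Dcn, was lower. Nid1, which links laminin to type IV collagen, read 239, 290 and 299 in WT, 3888, 8096 and 6923 in DEN_WT, 239, 285 and 243 in KO and 634, 919 and 452 in DEN_KO. It differed by 4.45 ± 0.28 in DEN_WT against WT (adjusted p = 5.4e-07), by -3.23 ± 0.28 in DEN_KO against DEN_WT (adjusted p = 2.8e-05) and by 1.33 ± 0.28 in DEN_KO against KO (adjusted p = 0.0083). The laminin chains Lama5 and Lamc1, also of basement membranes, were higher in DEN_WT by 3.16 ± 0.32 (adjusted p = 1.6e-05) and 1.55 ± 0.18 (adjusted p = 4e-05).

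Of 13 signals known to induce collagen, 9 were higher in DEN_WT than in WT and 1, the inhibitor Smad7, was lower. Of all tested genes 16.1% were higher there and 13.5% lower. Tgfbr2, the type II receptor of TGF-beta, read 851, 674 and 567 in WT, 2259, 2287 and 2326 in DEN_WT, 314, 352 and 326 in KO and 586, 1048 and 560 in DEN_KO. It was the only gene of the 85 that passed in KO against WT, where it was lower without overlap. The ligands Tgfb2 and Pdgfb were higher in DEN_WT by 2.75 ± 0.43 (limma adjusted p = 0.00043) and 2.36 ± 0.34 (adjusted p = 0.00027) and lower in DEN_KO than in DEN_WT by log2 differences of -2.46 ± 0.43 (adjusted p = 0.00096) and -1.94 ± 0.34 (adjusted p = 0.0011). In the interaction 21 of the 81 counted genes were below 0 at the threshold and 0 above (25.9% called, against 16.6% of all genes).

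**Figure D3:**
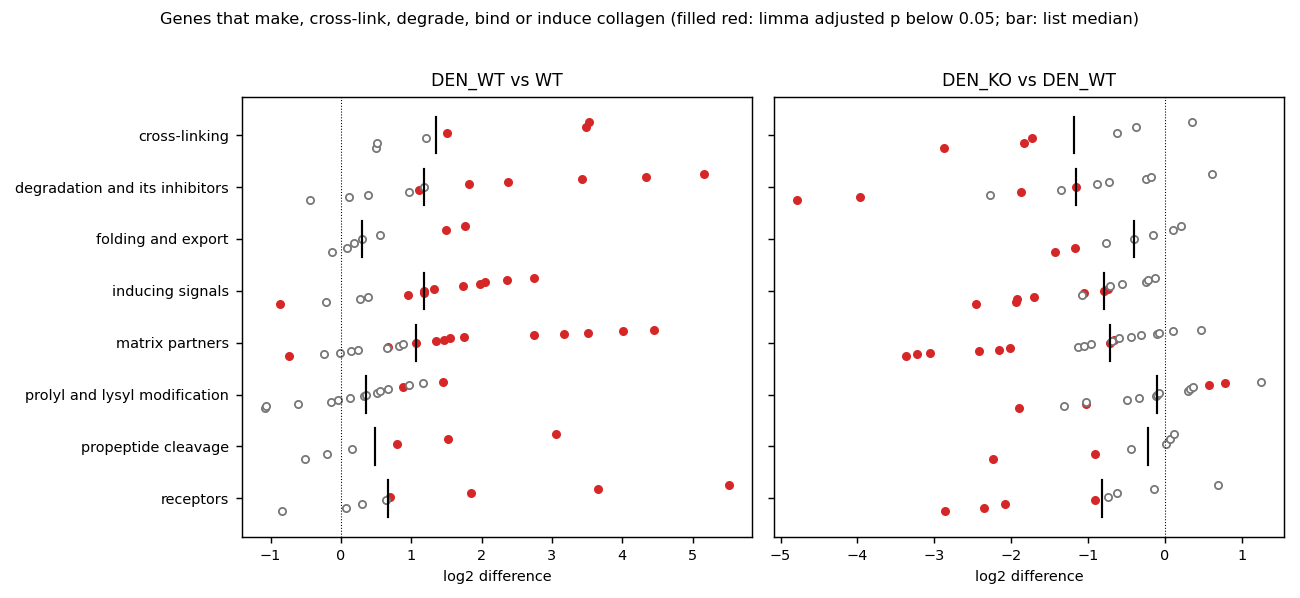
Log2 differences (x axis) of 85 genes in 8 lists (y axis) that make, cross-link, degrade, bind or induce collagen, in DEN_WT against WT and DEN_KO against DEN_WT. Points are genes, the 4 that passed the filter only through DEN_WT included, filled red where the limma adjusted p was below 0.05, and bars are list medians; matrix partners have a median of 1.06 in the first comparison and -0.71 in the second.

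At the starts of collagen genes the 3 deposited lists held fewer regions than at protein-coding genes as a whole. Each list is 1 set of regions for both replicates, so its counts are descriptions with no test. Within 1000 bases of the start, a Smyd3 peak was listed for 17 of 43 collagens (39.5%, against 51.9% of all 22369 protein-coding genes). An H3K4me3 region of WT was listed for 8 (18.6%, against 52.3%), and one of KO for 17 (39.5%, against 53.4%). Among the 32 tested collagens, 8 had an H3K4me3 region of WT (25%, against 78.5% of tested protein-coding genes) and 15 a Smyd3 peak (46.9%, against 71.2%).

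All 8 collagens with a WT H3K4me3 region had one in KO too. They were Col4a1, Col4a2, Col4a3, Col4a4, Col4a5, Col5a1, Col13a1 and Col23a1, and so included every tested basement membrane chain. One region spanned the starts of Col4a1 and Col4a2, 2575 bases long in the WT list and 4470 in the KO list. The region over Col4a3 and Col4a4 was 1246 bases in WT and 1238 in KO, and the one at Col4a5 979 and 1060. The RNA of these chains was lower in DEN_KO than in DEN_WT, while their starts were listed in both H3K4me3 lists. The deposited regions carry a score of 0 throughout, so the height of the mark was not compared.

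At 9 collagens a region was listed in KO and not in WT, 20.9% of the family against 2.97% of all protein-coding genes, and the reverse held for 0 (against 1.85%). These were Col5a2, Col6a1, Col6a2, Col6a3, Col12a1, Col14a1, Col24a1, Col25a1 and Col27a1. Among tested genes the share was 28.1% of collagens against 3.71% of protein-coding genes. Only a start without a WT region can be listed in KO alone, and collagens had fewer WT regions (18.6% against 52.3%). Of tested collagens without a WT region, 9 were listed in KO and 15 in neither list. For tested protein-coding genes these counts were 519 and 2483. The KO list is longer, with 17491 regions over 32854274 bases against 15579 over 26939095. For Col27a1 the call depends on the window, since the WT list has a region from 1305 bases after the start, which a window of 2500 bases takes in, and for Col12a1 a window of 5000 bases takes one in. In the RNA of these 9 genes, 1 was higher in DEN_KO than in DEN_WT (Col27a1), 1 was lower (Col6a3) and 7 did not pass. Of all tested genes 16.4% were higher and 17.4% lower. Of 519 tested protein-coding genes listed in KO alone, 104 were higher and 62 lower. The calls among the 9 are too few to give a direction.

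**Figure D4:**
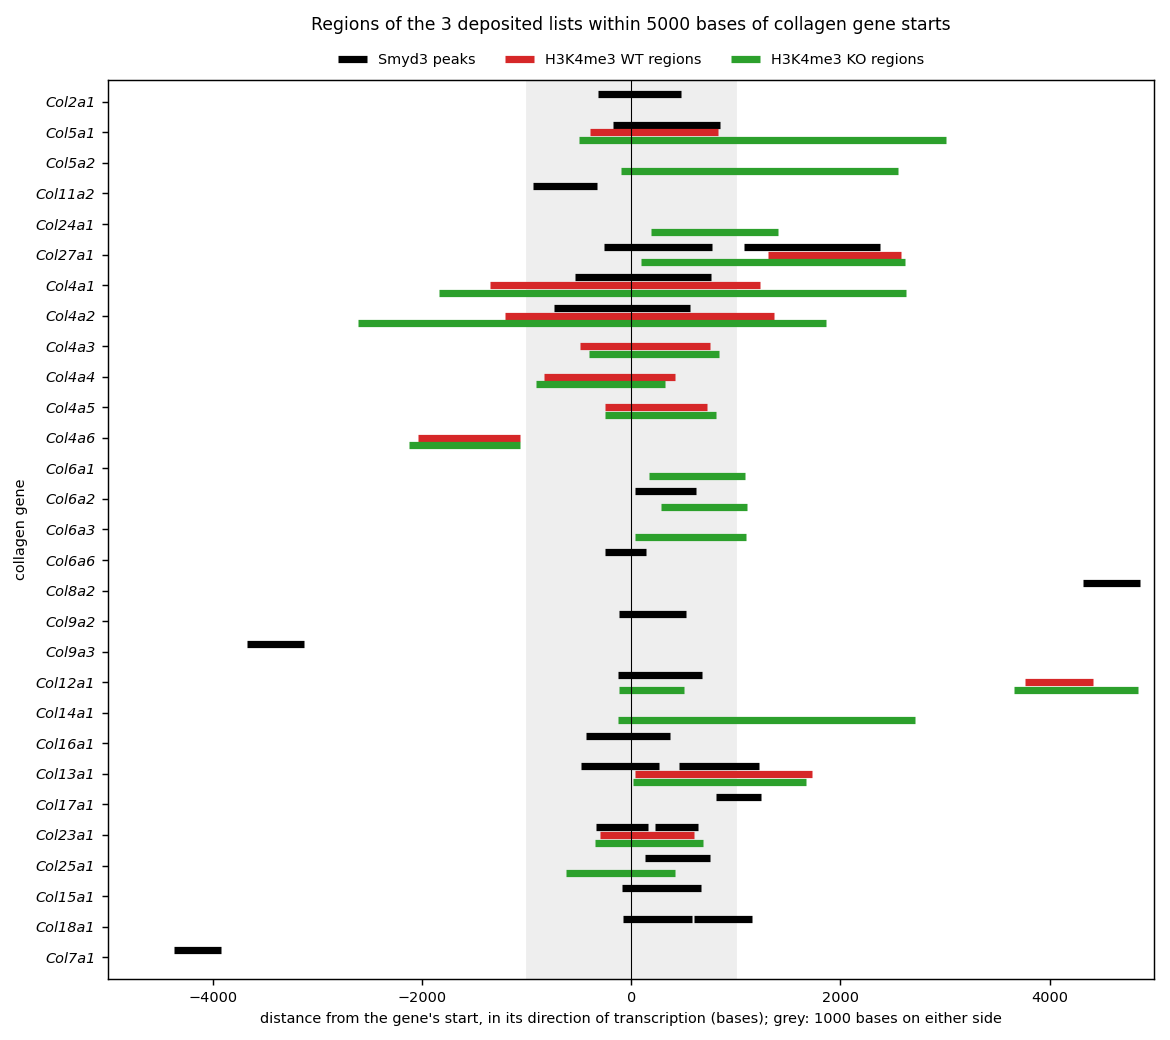
Regions of the Smyd3 list (black), the H3K4me3 WT list (red) and the H3K4me3 KO list (green) by distance from the gene start (x axis, bases, in the direction of transcription) for the collagens (y axis) with any region within 5000 bases. The grey band is the window of 1000 bases on either side; green bars without red inside it mark the 9 collagens listed for H3K4me3 in KO and not in WT.

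Of the 17 collagens with a Smyd3 peak, 12 had no WT H3K4me3 region (27.9% of the family, against 7.68% of all protein-coding genes). Only 1 start per gene was searched, so a mark at another start of a gene is missed. Col18a1 is among the 12, but RefSeq lists promoters for it at separate places. Its gene body holds 1 H3K4me3 region in the WT list and 1 in the KO list. The Smyd3 peaks of the 17 included 1 of 1301 bases over the Col4a1 and Col4a2 starts and 1 of 392 bases at Col6a6. No Smyd3 peak was listed within 1000 bases of the starts of Col1a1, Col1a2, Col3a1, Col4a3, Col4a4 or Col4a5. Of the 12 collagens lower in DEN_KO than in DEN_WT 3 had a Smyd3 peak (25%), where 74.2% of all tested protein-coding genes called lower had one. Of the 15 higher in DEN_WT than in WT 5 had one (33.3%, against 69%).

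The upstream sequence of Col6a1, one of the genes listed for H3K4me3 in KO alone, is shown for its run of CCCTCC copies, which are in capitals. It is chr10:76726045-76726294 on the minus strand of GRCm38.p6, written along the gene.
Col6a1: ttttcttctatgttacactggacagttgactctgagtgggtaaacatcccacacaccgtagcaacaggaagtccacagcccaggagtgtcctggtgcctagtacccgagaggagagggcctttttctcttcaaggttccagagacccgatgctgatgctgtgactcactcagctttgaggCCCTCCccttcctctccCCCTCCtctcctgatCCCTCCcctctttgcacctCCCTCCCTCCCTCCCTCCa
It held CCCTCC 7 times, overlaps included, with 0 of the other motifs, and no Smyd3 peak was listed within 1000 bases of its start. Over the 35 collagens with a promoter entry, a Smyd3 peak at the start was listed for 10 of 21 with CCCTCC, and among those without it 5 had a peak and 9 had none. These shares are given as a description.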

How the data were processed

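RNA of 12 livers and 3 region lists from DEN-treated livers were used, and inputs and RNA polymerase II precipitations were not analysed here. mRNA isolated on beads was sequenced by Ion Proton, per the labels' protocols. The submitters' processing notes name build mm9 and the tools Bowtie2, cutadapt, Cufflinks, DESeq and TopHat2 2.0.9, with no role for any. Strand use, annotation release and peak caller were not given in the sources used here. In the RNA table the deposited values are a score per gene, read from the table's values and name as a read count that the authors divided by 1 factor per library and rounded. The region lists carry a score of 0 in every line, per the file headers and lines, and whether replicates were pooled is not stated. Each library's own file equalled the series table in 12 of 12 cases, and columns of other samples numbered 0. Because values are scaled, no counting interval is given, and sums per library stand for depth.

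Genes that reached 10 or more in 3 or more libraries were tested on log2(value + 1) with limma 3.58.1 (R 4.3.3, trend, 1 fit of 4 groups, 8 residual degrees of freedom), adjusted by Benjamini-Hochberg over all tested genes. The log2(value + 1) scale understates changes of low genes. The script was tested on simulated data. The labels number the mice of a group, so replicates are separate animals. Values in every library are given for collagens past the threshold in DEN_WT against WT, DEN_KO against DEN_WT or the interaction and for the 5 highest collagens, and up to 3 genes with the smallest adjusted p are named per collagen-processing list. The members and lists were chosen with earlier results of these data known. Starts are those of the deposited table, 1 per gene, and a region counted if at least 1 base lay within 1000 bases of a start. Promoter sequences are RefSeq's, GRCm38.p6, matched by symbol for 35 of 43 collagens. Alternatives covered filters, pseudocounts, scaling, trend, robust moderation, a replicate block, fits of 2 groups, windows and each library left out.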

Additional observations from a re-analysis of the deposited data

Results flagged for a closer look

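The DEN effect on 11 collagens differed between the genotypes by the interaction term of limma (Benjamini-Hochberg adjusted p below 0.05), which is the DEN effect in knockout minus that in wild type on the log2 scale, over 3 mice per group. The type IV chains had -2.28 (Col4a1, adjusted p = 0.0031), -1.48 (Col4a2, adjusted p = 0.034), -3.49 (Col4a3, adjusted p = 0.0035), -3.64 (Col4a4, adjusted p = 0.003) and -1.99 (Col4a5, adjusted p = 0.016). The type I and type III chains had -2.64 (Col1a1, adjusted p = 0.026), -2.20 (Col1a2, adjusted p = 0.019) and -2.13 (Col3a1, adjusted p = 0.012). The type VI chains had -2.33 (Col6a5, adjusted p = 0.024) and -5.24 (Col6a6, adjusted p = 0.0016). Col27a1 alone of these was above 0, at 2.32 (adjusted p = 0.0014), its DEN effect being -1.67 in wild type and 0.65 in knockout. No formal test for an outlying sample was run, since each group has 3.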

How the results depend on the processing

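Of 45 calls of a collagen in a comparison, all 45 kept their direction and 36 kept their call under every setting run for them. The count of collagens called in KO against WT, 1 as reported, was 0 without a filter, without the trend, with robust moderation, with the replicate block and in the fit of the 2 groups alone. Leaving out each library in turn gave 15 to 18 collagens in DEN_WT against WT, 13 to 16 in DEN_KO against DEN_WT, 0 to 1 in KO against WT, 1 in DEN_KO against KO and 8 to 13 in the interaction. Besides that of Col5a3 in KO against WT, these limma calls were lost with all libraries in. In DEN_WT against WT, Col12a1 was lost under quantile normalization (adjusted p = 0.12) and without a filter (adjusted p = 0.052), and Col15a1 under quantile normalization (adjusted p = 0.076) and in the fit of 2 groups (adjusted p = 0.072). Col25a1 was lost without a filter (adjusted p = 0.06), with the replicate block (adjusted p = 0.052) and in the fit of 2 groups (adjusted p = 0.056). Without a filter Col6a5 was lost in DEN_KO against DEN_WT (adjusted p = 0.051) and in the interaction (adjusted p = 0.052), and without the trend Col4a2 was lost in the interaction (adjusted p = 0.063). The cause was not tested. The counts at gene starts stayed within 1.5 times under the other windows. Scaling shifted the median log2 of all genes by at most 0.09 in size in DEN_WT against WT, as -0.09 with quantiles.

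Replicate numbers are shared between groups, but same-numbered libraries deviated together with correlations of only -0.1 to 0.12, and 3 of 12 libraries correlated best with their own number. With the replicate block, 16 collagens were called for DEN and 0 for the knockout against WT, 15 for the knockout after DEN, 1 for DEN in the knockout and 11 in the interaction. Values are rounded after scaling, so collagens below about 10 are limited by depth.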
